A study of Drosophila melanogaster with 12 samples.

Results

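Ageing in adult females was examined by comparing 30-day-old with 10-day-old whole flies. The members of this comparison are all 6 female libraries among the 12 libraries of the series, 3 from each age. Every fly was of the w1118 strain, a white-eyed laboratory stock of Drosophila melanogaster, and no group carried a transgene or received a drug or an infection. Both sexes shared vials until an age of 3 days, so the females were mated, and they were then kept without males on a medium with 10% sucrose and 10% yeast. Each sample held 10 flies, and the RNA of each age came from 3 independent experiments. The older females had also been apart from males for longer, and the ages were deposited in separate tables, so age, time since mating and any difference in handling of the tables cannot be told apart. The other 6 libraries came from males of the same strain and the same ages, and are used here only to ask where the age difference of females differed from that of males.

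In a mated female fly the ovaries make up much of the body and continuously produce eggs. Follicle cells, the somatic layer around each developing egg, take up a short and strictly timed program. They first secrete the vitelline membrane and then the chorion, the hard outer eggshell, and the major chorion genes lie in clusters whose DNA the follicle cells amplify before transcription. The fat body and the follicle cells also make yolk proteins, which the oocyte takes up through a receptor. Germline cells of the same egg chambers load the oocyte with maternal RNAs.

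The female libraries held between 37558056 and 62924598 counts, and between 10187 and 11337 genes had at least 1 count. Of 14760 genes present in the tables of both ages, 10338 passed the filter on low counts and were tested. Log-CPM values (CPM, counts scaled to the size of the library by the TMM method) correlated with r of 0.930 to 0.954 within an age and 0.906 to 0.941 between ages, and the biological coefficient of variation was 46.3%. The large mitochondrial ribosomal RNA took 6.18%, 6.25% and 9.87% of the counts at 10 days and 8.52%, 4.25% and 1.41% at 30 days. The 9 Y-linked genes examined had 0 counts in every female library. Most muscle genes were well covered, as Mhc, the muscle myosin heavy chain, had 10079 to 24957 counts. However, 3 genes that define flight muscle were nearly absent for a whole-fly sample: fln had at most 29 counts, TpnC4 at most 49 and Act88F at most 645 in any of the 6 libraries.

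Of the 10338 tested genes, 23 (0.222%) passed the threshold of 0.05 for the adjusted p of edgeR's quasi-likelihood test. At 30 days 21 of them were lower expressed (0.203% of the tested genes) and 2 were higher expressed (0.0193%). Normalized values of the ages did not overlap for any of the 23, and for 1860 genes in all (18%; 11.1% lower and 6.9% higher). Over all tested genes the log2 fold change had a median of 0.02. At an unadjusted p below 0.05 there were 622 lower (6.02%) and 362 higher genes (3.5%). DESeq2 called 180 genes lower (1.65%) and 18 higher (0.165%), and limma-voom called 8 lower (0.0774%) and 1 higher (0.00967%). One library could move this count strongly. It was 99 without 30-day replicate 1 (87 lower, 12 higher), 13 without 30-day replicate 3 and 10 without 10-day replicate 3. The called genes lie on the X chromosome (9 genes), on chromosome arms 3L (7), 3R (3), 2L (2) and 2R (2). The share of tested genes on each arm was not worked out, so these counts cannot show an excess on any arm. Some called genes are also direct neighbours, such as Cp7Fb and Cp7Fc on X, or yellow-g and yellow-g2 on 3L.

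**Figure D1:**
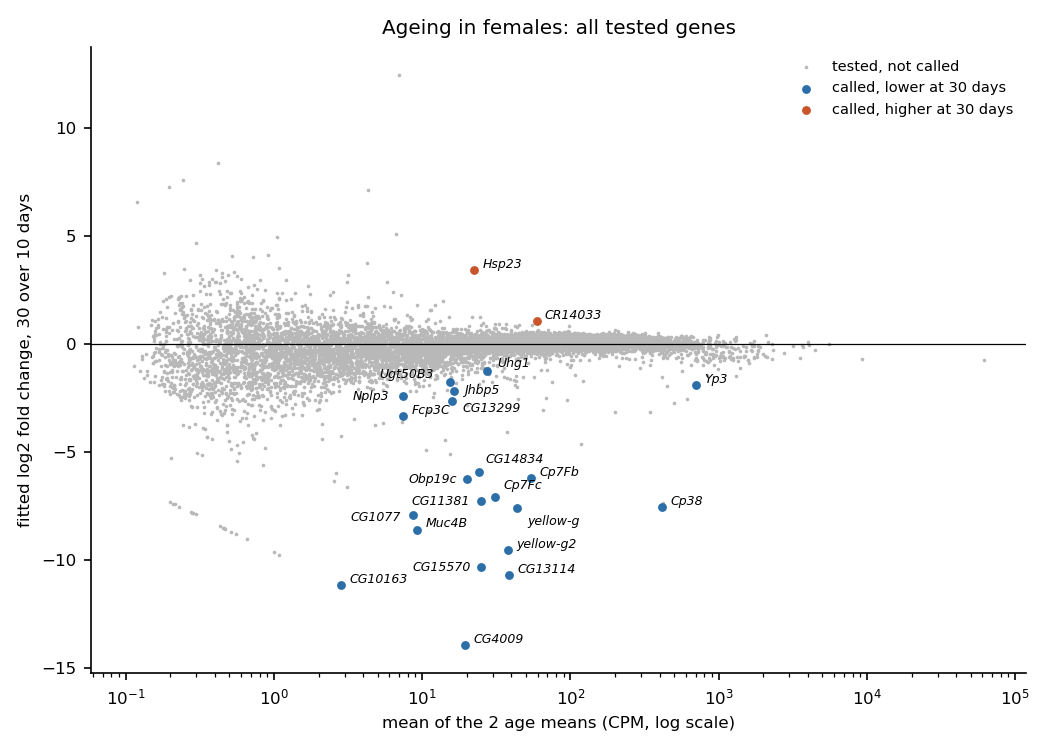
Fitted log2 fold change (30 over 10 days) of the 10338 tested genes against the mean of the 2 age means in CPM on a log axis, with grey points for genes that were not called and coloured, named points for the 23 called genes. The 21 lower genes reach from -1.23 (Uhg1) to -13.92 (CG4009), while only Hsp23 (3.44) and CR14033 (1.08) lie above 0.

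Chorion genes made up 3 of the 21 genes that fell. Of 10 tested chorion genes, 3 were lower at 30 days by edgeR, 4 by DESeq2 and 1 by limma-voom, and none was higher. Among all genes the shares called lower were 0.203%, 1.65% and 0.0774%. Cp38, Cp7Fc and Cp7Fb, the 3 called by edgeR, lost the call in edgeR's robust fit (adjusted p of 0.112 to 0.348). They also lost it in an edgeR fit with a replicate block (adjusted p of 0.0637 to 0.124). The fitted value was below 0 for all 10, with a median log2 fold change of -4.78 beside 0.02 for all tested genes. The ages did not overlap for 8 of the 10, all lower at 30 days, beside 11.1% of all tested genes. Without 30-day replicate 2 the median was -8.28 and 5 chorion genes were called lower, and without any 1 of the 10-day libraries 2 were. In a sample of whole flies, fewer follicle cells at the chorion-forming stages and less chorion RNA in each of them cannot be told apart.

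The 5 chorion genes of the X chromosome cluster showed the clearest pattern. Their summed level was 2082, 1344 and 2153 CPM in the 10-day libraries and 3.84, 31.2 and 0.669 CPM in the 30-day libraries. The older libraries thus held between 0.0360% and 1.68% of the mean of the younger ones. Cp38, which encodes a chorion structural protein, had 913, 562 and 1012 CPM at 10 days and 2.94, 9.85 and 0.347 CPM at 30 days. Its log2 fold change was -7.54 (standard error 0.91, edgeR adjusted p = 0.00791). Cp7Fc had 80.1, 53.3 and 51.4 CPM in the younger and 0, 0.950 and 0.322 CPM in the older females, a change of -7.10 (standard error 0.75, edgeR adjusted p = 0.00400). Cp7Fb had 135, 91.6 and 94.9 CPM at 10 days and 0.440, 3.72 and 0 CPM at 30 days, a change of -6.21 (standard error 0.97, edgeR adjusted p = 0.0361). In each of these 3 genes every 30-day library was far below every 10-day library.

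Cp36, the neighbour of Cp38 and another major chorion gene, had 56636, 32932 and 47678 counts at 10 days. At 30 days it had 19, 788 and 0 counts. This fall is as wide as that of Cp38, but the 30-day libraries also differed widely among themselves, and the gene did not pass (log2 fold change -7.35, standard error 1.38, edgeR adjusted p = 0.0899). Cp7Fa had 1947, 694 and 826 counts in the younger and 0, 106 and 0 counts in the older females (log2 fold change -4.92, edgeR adjusted p = 0.266). Within the X cluster 30-day replicate 2 was the highest of the older libraries for all 5 genes.

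The 4 genes of the other chorion cluster, on chromosome arm 3L, varied more within each age. Their summed level was 335, 278 and 944 CPM at 10 days and 175, 91.4 and 2.08 CPM at 30 days, and none was called by any of the 3 tools, although 3 of the 4 were lower at an unadjusted p below 0.05. Cp19 had 37.8, 160 and 478 CPM in the younger and 1.54, 25.0 and 0.223 CPM in the older females (log2 fold change -4.64, edgeR adjusted p = 0.307). Cp16 had 8.16, 47.9 and 156 CPM at 10 days and 2.27, 9.63 and 0.471 CPM at 30 days (log2 fold change -4.08, edgeR adjusted p = 0.266). For Cp18 the values were 40.5, 56.9 and 250 CPM against 14.8, 25.96 and 1.21 CPM (log2 fold change -3.04, edgeR adjusted p = 0.330). The ages overlapped for Cp16. Cp19, Cp16 and Cp18 were highest in 10-day replicate 3 and lowest in 30-day replicate 3. Cp15, a late chorion gene, overlapped between the ages, with 249, 13.1 and 60.9 CPM at 10 days and 156, 30.8 and 0.173 CPM at 30 days (log2 fold change -0.79, edgeR adjusted p = 0.887). Without 10-day replicate 1 its fitted value turned to 0.75. The remaining chorion gene, Femcoat, had 320, 296 and 1461 counts against 30, 136 and 0 counts (log2 fold change -3.62, edgeR adjusted p = 0.379).

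**Figure D2:**
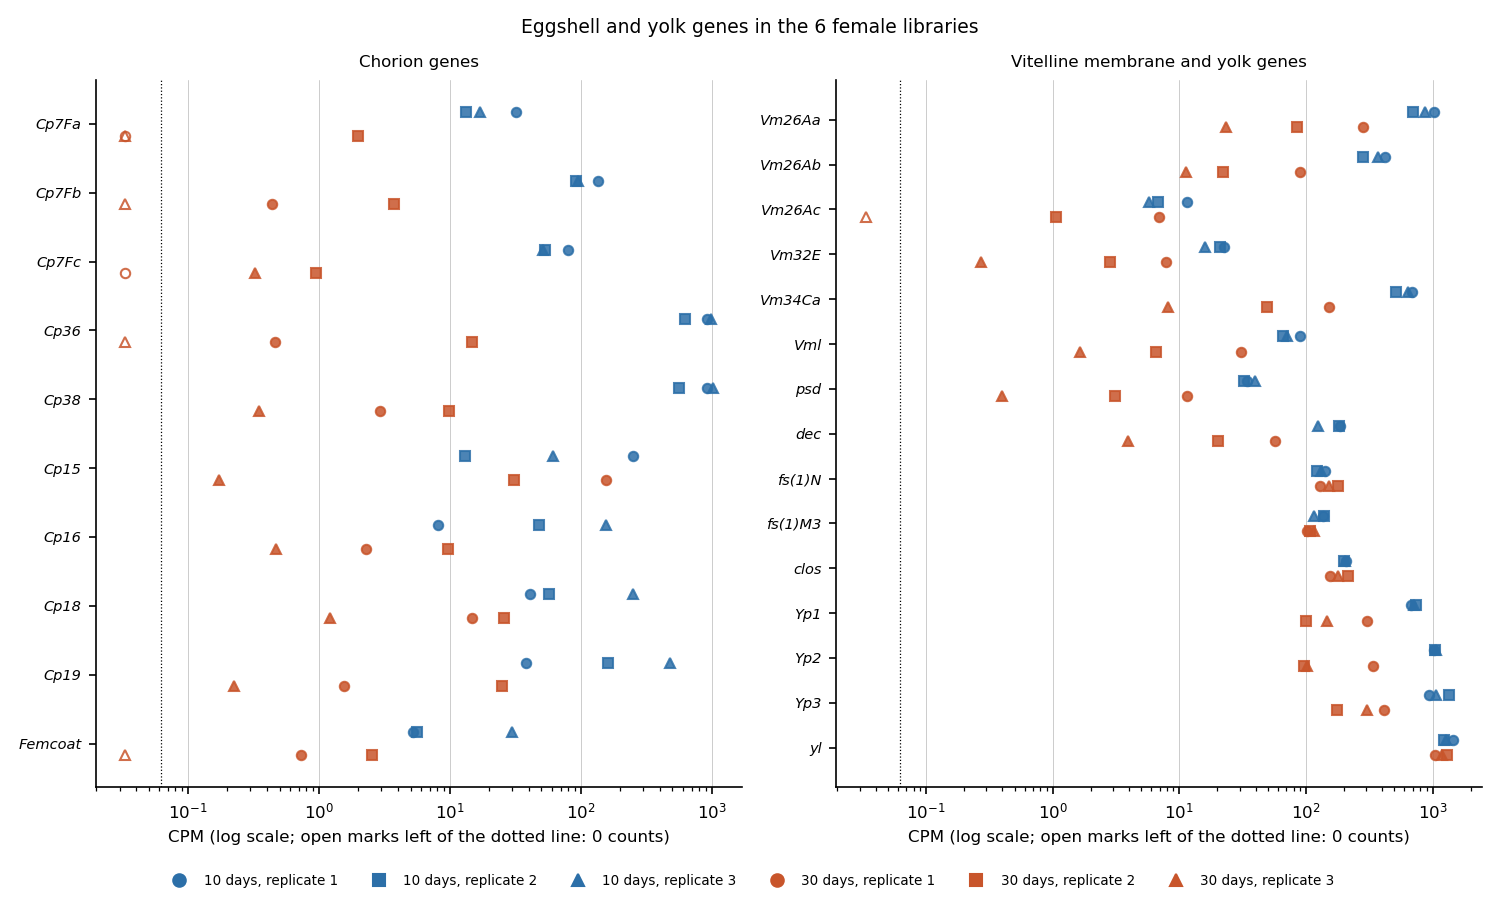
CPM (log axis) of 10 chorion genes in the left panel and of 11 vitelline membrane and 4 yolk genes in the right panel, with 1 mark per library, blue for 10 days and orange for 30 days. Open marks left of the dotted line stand for 0 counts. In the X cluster (Cp7Fa to Cp38) all orange marks lie below all blue marks, while fs(1)N, fs(1)M3, clos and yl stay above 100 CPM in all 6 libraries.

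The vitelline membrane is the inner layer of the eggshell. Of 11 tested genes, edgeR called 0 in either direction, DESeq2 2 lower and limma-voom 1 lower, while 7 were lower at an unadjusted p below 0.05. Over all genes DESeq2 called 1.65% lower and limma-voom 0.0774%, and 6.02% were lower at an unadjusted p below 0.05. The median was -2.55. Without 30-day replicate 1 edgeR called 6 of the 11 lower, and the median was -3.92. The list was divided by cell of origin after its values were seen, so the division is a description only. The 7 vitelline genes of follicle cells had fitted values below 0, with a median of -2.74 and a summed level of 2288, 1633 and 2020 CPM at 10 days against 578, 170 and 45.4 CPM at 30 days. Vm26Ab, a structural protein of this layer, had 424, 283 and 372 CPM in the younger and 90.0, 22.1 and 11.4 CPM in the older females. Its log2 fold change was -3.13 (edgeR adjusted p = 0.119), and limma-voom called it with -3.67 (adjusted p = 0.0237). Vm34Ca had 689, 518 and 637 CPM against 151, 49.1 and 8.18 CPM (log2 fold change -3.15, edgeR adjusted p = 0.201). For Vm26Aa the libraries held 1018, 705 and 878 CPM against 280, 85.6 and 23.5 CPM (log2 fold change -2.74, edgeR adjusted p = 0.212). In all 7 genes 30-day replicate 3 was the lowest library. The others were Vml (-2.55), psd (-2.83), Vm32E (-2.44) and Vm26Ac (-1.59) on the log2 scale, each with an edgeR adjusted p above the threshold. The eggshell protein gene dec, also made by follicle cells, had 185, 181 and 125 CPM against 57.4, 20.2 and 3.97 CPM (log2 fold change -2.59, edgeR adjusted p = 0.253).

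The 3 remaining genes of the list, fs(1)N, fs(1)M3 and clos, are made by the germline and needed for the vitelline membrane. Their summed level was 484, 463 and 451 CPM at 10 days and 388, 501 and 449 CPM at 30 days. The ages overlapped for fs(1)N and clos. The log2 fold changes were 0.22 (fs(1)N), -0.26 (fs(1)M3) and -0.15 (clos), each with an edgeR adjusted p of 0.603 or more. No test compared the germline with the follicle cell genes.

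Several called genes outside the chorion list had a clear level in all 3 younger libraries and few or no counts in the older ones. CG4009 had 3107, 1402 and 1955 counts at 10 days and 0 counts in all 3 libraries at 30 days. It was at least 1759-fold lower, taking 3 counts over the 3 older libraries as the floor (edgeR adjusted p = 0.000109). CG10163 had 399, 244 and 291 counts at 10 days and 0 counts in all 3 older libraries, at least 256-fold lower (edgeR adjusted p = 0.00612). For these genes the fitted values of -13.92 and -11.14 depend on a small count added in the fit and are no estimate of size. CG13114 had 4464, 3071 and 4925 counts against 0, 6 and 0 (log2 fold change -10.70, standard error 0.58, edgeR adjusted p = 4.66e-05). Its neighbour in RefSeq gene order, CG13113, had 452, 233 and 180 counts against 0, 11 and 1 (log2 fold change -5.95, edgeR adjusted p = 0.0881).

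yellow-g and yellow-g2 are neighbouring genes on 3L of the yellow family, expressed in follicle cells and required for a firm eggshell. yellow-g2 had 5306, 3341 and 3750 counts at 10 days and 0, 14 and 0 counts at 30 days (log2 fold change -9.52, standard error 0.67, edgeR adjusted p = 0.000109). yellow-g had 5675, 3234 and 5132 counts against 0, 48 and 15 (log2 fold change -7.59, standard error 0.70, edgeR adjusted p = 0.00118). Both fell to under 0.5% of the 10-day mean. On the X chromosome CG15570 and Muc4B, a mucin gene, stand on either side of Femcoat. CG15570 had 3841, 1417 and 2932 counts in the younger and 0, 5 and 0 in the older females (log2 fold change -10.32, standard error 0.70, edgeR adjusted p = 0.000109). Muc4B had 1027, 602 and 1335 counts against 6, 0 and 0 (log2 fold change -8.58, standard error 0.96, edgeR adjusted p = 0.00557).

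CG1077 had 1022, 718 and 1038 counts at 10 days and 0, 0 and 9 at 30 days (log2 fold change -7.90, edgeR adjusted p = 0.0105). CG11381 had 3605, 2087 and 2416 counts against 0, 47 and 0 (log2 fold change -7.26, edgeR adjusted p = 0.0180). CG14834, named after its values were seen, had 3358, 2278 and 2167 counts against 0, 93 and 23 (log2 fold change -5.90, edgeR adjusted p = 0.0283). These 3 genes also fell to below 2% of their 10-day mean, as did 14 of the 21 lower genes in all. Of the genes described from CG4009 to CG14834, limma-voom called none, with adjusted p of 0.0714 (yellow-g2) to 0.258 (CG15570). In edgeR's robust fit yellow-g (adjusted p = 0.0845), CG11381 (0.238) and CG14834 (0.246) also lost the call. Obp19c belongs to the odorant-binding protein family, small secreted carriers that are also made outside the antenna. It had 43.8, 36.01 and 38.8 CPM in the younger and 0.856, 0.484 and 0.223 CPM in the older females, so the ages lay far apart although the older libraries differed among themselves. Its log2 fold change was -6.24 (standard error 0.44, edgeR adjusted p = 0.000109), and it was the only called gene that passed under all 19 alternatives that gave it a test. Among the 25 tested genes of the family it was the only one called. Fcp3C, follicle cell protein 3C, had 11.6, 20.3 and 8.59 CPM at 10 days and 1.44, 1.81 and 0.719 CPM at 30 days (log2 fold change -3.34, edgeR adjusted p = 0.0317) and was also named after its values were seen.

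**Figure D3:**
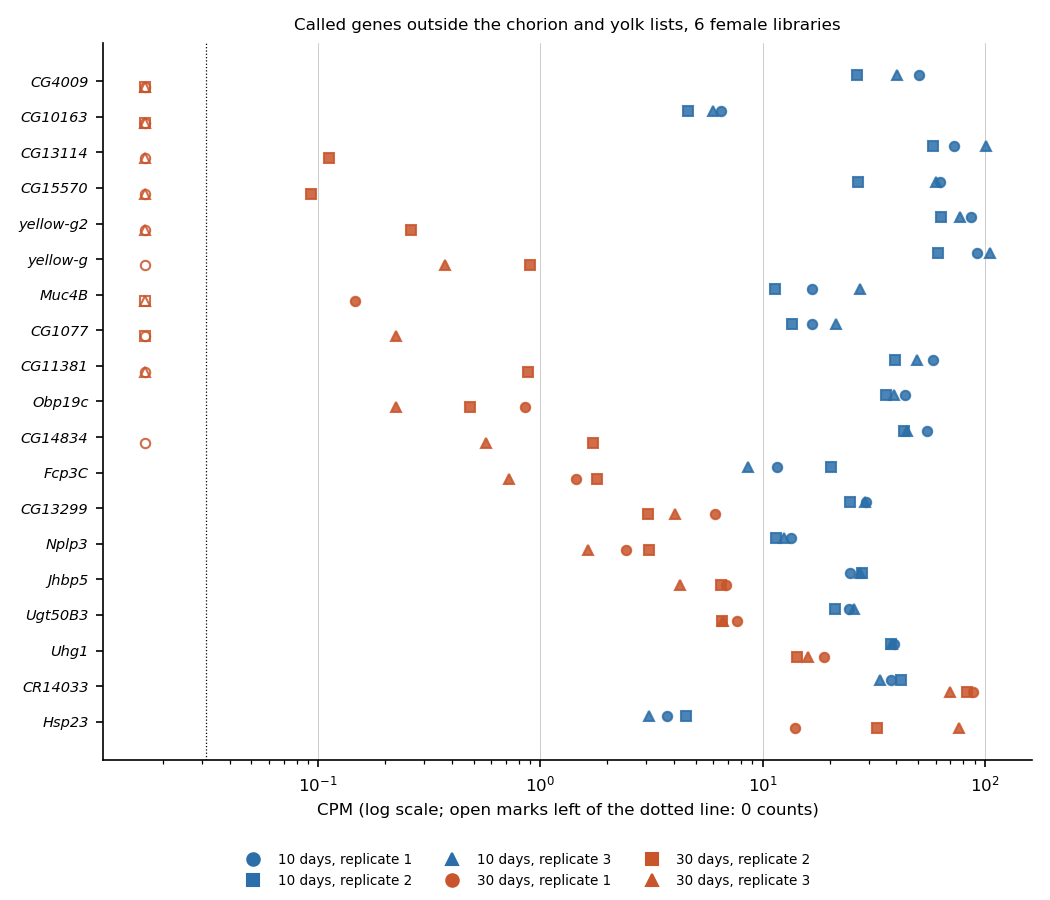
CPM (log axis) of the 19 called genes outside the chorion and yolk lists in the 6 female libraries, blue for 10 days and orange for 30 days, with open marks left of the dotted line for 0 counts. From CG4009 to CG14834 the 30-day libraries lie below 2 CPM while the 10-day libraries lie above 4 CPM. From Fcp3C to Uhg1 the ages lie closer, and only CR14033 and Hsp23 have the orange marks to the right.

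Of the 4 yolk genes, Yp3 passed the test of edgeR. Yp3, one of the 3 major yolk proteins, had 942, 1339 and 1060 CPM in the younger and 416, 177 and 301 CPM in the older females. Its level at 30 days was 26.8% of that at 10 days (log2 fold change -1.90, standard error 0.28, edgeR adjusted p = 0.0294). Yp1 had 670.0, 744 and 708 CPM against 302, 99.9 and 146 CPM (log2 fold change -1.96, edgeR adjusted p = 0.0683). Yp2 had 1033, 1040 and 1059 CPM against 340, 97.4 and 102 CPM (log2 fold change -2.54, edgeR adjusted p = 0.0622). In all 3 genes no 30-day library reached a 10-day library, and DESeq2 and limma-voom called all 3 lower. Yp3 lost its edgeR call when 10-day replicate 2, 10-day replicate 3 or 30-day replicate 3 was left out, while without 30-day replicate 1 edgeR called all 3. The yolk receptor gene yl, expressed in the germline, had 1440, 1233 and 1274 CPM against 1038, 1298 and 1186 CPM, with overlapping ages (log2 fold change -0.16, edgeR adjusted p = 0.757).

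Lists of genes used in the germline are given beside the values of all tested genes. Those had a median of 0.02, with 6.02% lower and 3.5% higher at an unadjusted p below 0.05, and DESeq2 called 1.65% lower. Of 24 tested localized maternal RNAs and their binding proteins, edgeR, DESeq2 and limma-voom called 0, and 2 were lower and 0 higher at an unadjusted p below 0.05. Their median was -0.01, and it lay between -0.11 and 0.60 when the library factors were set in other ways. osk, which builds the germ plasm at the posterior pole of the oocyte, had 193, 190 and 171 CPM in the younger and 98.1, 152 and 156 CPM in the older females (log2 fold change -0.45, edgeR adjusted p = 0.484). bcd, the anterior determinant, had 162, 160 and 168 CPM against 171, 245 and 194 CPM (log2 fold change 0.31, edgeR adjusted p = 0.577). Of 26 tested genes of the piRNA pathway, which silences transposons in the germline, edgeR and limma-voom called 0 and DESeq2 called 1 lower, moon. moon had 24.4, 23.0 and 21.1 CPM against 14.8, 11.8 and 9.52 CPM (log2 fold change -0.92, edgeR adjusted p = 0.265). At an unadjusted p below 0.05, 1 piRNA gene was higher and 1 lower, and the list's median was 0.03.

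Of 33 tested mitosis genes, edgeR, DESeq2 and limma-voom called 0, but 31 had a fitted value above 0 and 9 were higher and 0 lower at an unadjusted p below 0.05. The median was 0.27, and it was between 0.17 and 0.86 under the other library factors. It was 0.16 without 30-day replicate 2, and without 30-day replicate 1 edgeR called 1 mitosis gene higher. The ages did not overlap for 12 of the 33, all higher at 30 days. Over all tested genes 6.9% were higher without overlap, and 3.5% were higher at an unadjusted p below 0.05. SMC2, a condensin subunit, had 154, 154 and 141 CPM at 10 days and 199, 220.3 and 194 CPM at 30 days (log2 fold change 0.45, edgeR adjusted p = 0.307). Cenp-C, a centromere protein, had 160.3, 156 and 167 CPM against 186, 269 and 242 CPM (log2 fold change 0.53, edgeR adjusted p = 0.328). Klp61F, a spindle kinesin, and glu, another condensin subunit, had log2 fold changes of 0.46 and 0.47 (edgeR adjusted p of 0.381 and 0.419). For 37 DNA replication genes the median was 0.08, the 3 tools called 0, and 3 were higher and 0 lower at an unadjusted p below 0.05.

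Of the 2 genes that rose, Hsp23 had the larger change. It encodes a small heat shock protein, a chaperone that binds unfolded proteins. Hsp23 had 3.70, 4.53 and 3.08 CPM in the younger and 14.02, 32.8 and 76.2 CPM in the older females. All 3 older libraries were above the younger ones, although they differed more than 5-fold among themselves. The log2 fold change was 3.44 (standard error 0.53, edgeR adjusted p = 0.0358), and the call was lost when any 1 of the libraries other than 30-day replicate 1 was left out, with fold changes of 2.63 to 3.60 on the log2 scale. Among the other 15 tested heat shock genes none was called by edgeR, DESeq2 or limma-voom. Hsp27 had 839, 845 and 846 CPM against 1105, 1302 and 995 CPM (log2 fold change 0.43, edgeR adjusted p = 0.392). Hsp68 had 5.19, 3.81 and 3.20 CPM against 7.53, 4.88 and 31.0 CPM, and was by far highest in 30-day replicate 3 (log2 fold change 1.83, edgeR adjusted p = 0.400). Hsf, the transcription factor of the heat shock response, had a log2 fold change of 0.30 (edgeR adjusted p = 0.633). The list's median was 0.29 (0.04 without 30-day replicate 3 and 0.60 without 30-day replicate 2). At an unadjusted p below 0.05, 3 of 16 genes were higher and 0 lower, beside 3.5% and 6.02% of all tested genes. CR14033, a pseudogene in RefSeq, had 37.9, 41.9 and 33.9 CPM at 10 days and 88.2, 83.0 and 69.5 CPM at 30 days (log2 fold change 1.08, standard error 0.16, edgeR adjusted p = 0.0295). The call of CR14033 was likewise lost when any 1 of the libraries other than 30-day replicate 1 was left out. Its span overlaps that of tkv, and reads of the 2 genes may not be separable.

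The other called genes fell to between 15.9% and 42.7% of the 10-day mean. With the exception of Ugt50B3 they were named after their values were seen. CG13299 had 29.2, 24.6 and 28.8 CPM in the younger and 6.09, 3.05 and 4.01 CPM in the older females (log2 fold change -2.65, edgeR adjusted p = 0.00735). Nplp3, a neuropeptide-like precursor, had 13.5, 11.5 and 12.4 CPM against 2.42, 3.09 and 1.64 CPM (log2 fold change -2.38, edgeR adjusted p = 0.0424). Jhbp5, named as a juvenile hormone binding protein, had 24.8, 27.9 and 27.5 CPM against 6.82, 6.48 and 4.26 CPM (log2 fold change -2.19, edgeR adjusted p = 0.00975). In each of these genes the highest older library lay far below the lowest younger one. Ugt50B3, a UDP-glycosyltransferase, had 24.4, 21.2 and 25.8 CPM against 7.68, 6.54 and 6.67 CPM (log2 fold change -1.77, edgeR adjusted p = 0.0221). Uhg1, a noncoding host gene of small nucleolar RNAs, had 39.2, 37.8 and 38.3 CPM against 18.9, 14.3 and 16.0 CPM (log2 fold change -1.23, edgeR adjusted p = 0.0358). In RefSeq 8 of the 23 called genes overlap another gene, among them Cp38, Cp7Fb, Cp7Fc, Jhbp5, Ugt50B3 and Uhg1, and the strand setting of the counting is not given in the sources used here.

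**Figure D4:**
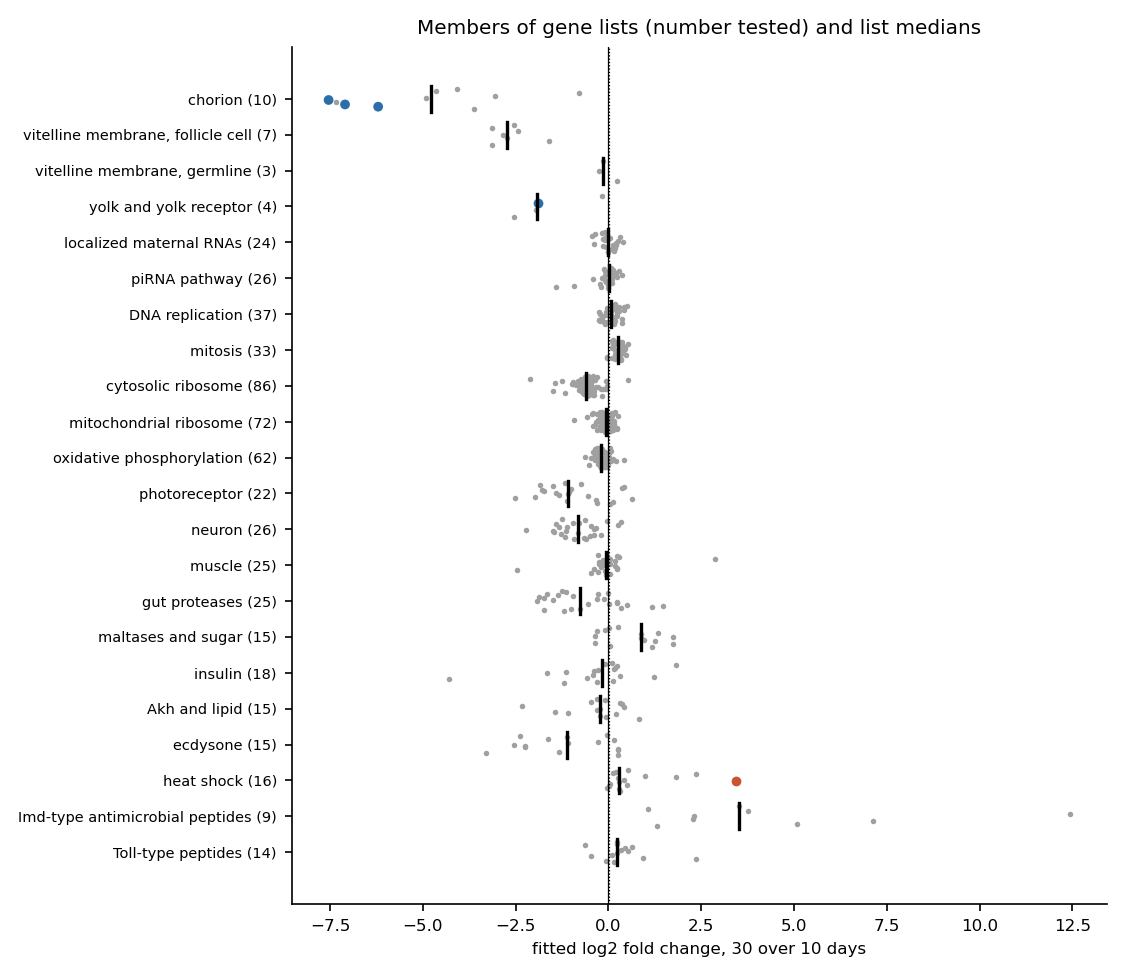
Fitted log2 fold changes (30 over 10 days) of the tested members of 22 gene lists, with the number tested in parentheses, grey points for members that were not called, coloured points for called members and a black bar for the list's median. The dotted line marks the median of all tested genes (0.02). Chorion (-4.78), follicle cell vitelline membrane (-2.74) and yolk genes (-1.93) lie to the left, Imd-type antimicrobial peptides (3.53) to the right.

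Ribosomal proteins build the translation machinery of every cell. Of 86 tested genes of the cytosolic ribosome, edgeR and limma-voom called 0, DESeq2 called 30 lower, and 69 were lower and 0 higher at an unadjusted p below 0.05. Over all genes DESeq2 called 1.65% lower, and 6.02% were lower and 3.5% higher at an unadjusted p below 0.05. Without 30-day replicate 1 edgeR called 25 lower, and without 30-day replicate 2 it called 1. All but 1 had a fitted value below 0, and the median was -0.60. The summed level of all 91 listed genes was 92730, 104058 and 86074 CPM in the younger and 76060, 46657 and 61425 CPM in the older females, without overlap. RpLP0 had 1188, 1264 and 1220 CPM against 585, 246 and 522 CPM (log2 fold change -1.44, edgeR adjusted p = 0.0925). RpS2 had 1873, 1949 and 1930 CPM against 1011, 369 and 660.0 CPM (log2 fold change -1.50, edgeR adjusted p = 0.116). The paralog RpS5b, which is enriched in ovaries, had a log2 fold change of -0.83 (edgeR adjusted p = 0.116), and RpL13A had -0.96 (edgeR adjusted p = 0.121). Scaling the libraries on genes of photoreceptors, neurons and muscle raised the values of all genes by a median of 0.56. These scaling genes had medians of -1.08, -0.81 and -0.07 in the main fit, so factors from them raise the other genes. Under these factors the median of the ribosomal protein genes was -0.09 with 1 gene called lower. Mitochondrial ribosomal protein genes had a median of -0.06, and nuclear genes of oxidative phosphorylation -0.20, both of which turned positive under those factors (0.52 and 0.35). Of these 72 and 62 genes, edgeR and limma-voom called 0. DESeq2 called 0 of the former and 1 lower of the latter, and at an unadjusted p below 0.05 there were 2 and 6 lower genes. Without 30-day replicate 1 edgeR called 2 of the oxidative phosphorylation genes lower.

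In the lists of photoreceptor and neuronal genes edgeR and limma-voom called 0. Over all genes 6.02% were lower and 3.5% higher at an unadjusted p below 0.05, and DESeq2 called 1.65% lower. Among 22 tested photoreceptor genes the median was -1.08, 10 were lower and 0 higher at an unadjusted p below 0.05, and DESeq2 called 4 lower. Without 10-day replicate 2 the median was -0.66. ninaE, the main rhodopsin of the outer photoreceptors, had 565, 855 and 407 CPM at 10 days and 146, 92.7 and 404 CPM at 30 days (log2 fold change -1.51, edgeR adjusted p = 0.353). Arr1, an arrestin that ends the light response, had 95.4, 188 and 64.4 CPM against 23.4, 6.70 and 31.2 CPM (log2 fold change -2.51, edgeR adjusted p = 0.148). trpl, a light-gated channel, and Rh3, an ultraviolet rhodopsin, had log2 fold changes of -1.97 and -1.84 (edgeR adjusted p of 0.201 and 0.232). The photoreceptor genes were highest in 10-day replicate 2, and in 30-day replicate 3 their summed level of 1130 CPM came close to the 1165 CPM of 10-day replicate 3. Among 26 neuronal genes the median was -0.81, 12 were lower and 0 higher at an unadjusted p below 0.05, and DESeq2 called 7 lower. nrv3, a sodium pump subunit, had 43.4, 58.1 and 36.9 CPM against 15.1, 11.0 and 24.3 CPM (log2 fold change -1.46, edgeR adjusted p = 0.127). Syt1, the calcium sensor of synaptic vesicles, had 30.2, 30.2 and 36.1 CPM against 17.1, 8.14 and 14.5 CPM (log2 fold change -1.28, edgeR adjusted p = 0.177). brp, a protein of the active zone, had -1.49 (edgeR adjusted p = 0.201). Of 25 muscle genes 0 were called by any of the 3 tools and 0 had an unadjusted p below 0.05.

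Antimicrobial peptide genes that are controlled by the Imd pathway, the fly's response to Gram-negative bacteria, had higher fitted values at 30 days in all 9 tested genes. Of these genes edgeR, DESeq2 and limma-voom called 0, and 4 were higher and 0 lower at an unadjusted p below 0.05. Over all tested genes 3.5% were higher and 6.02% lower at that p. The median was 3.53, also with DptA at its bound. DptA, Dro and CecA1 passed the filter on low counts only through their 30-day libraries. The direction of the genes that needed their 30-day libraries was therefore partly set by the filter. This limits what the count of 9 and the median can show. The summed level of the 11 genes was 4.04, 6.55 and 4.88 CPM at 10 days and 18.1, 10.3 and 151 CPM at 30 days, so the ages did not overlap, but 30-day replicate 3 stood far above the rest. DptA, encoding a diptericin, had 0 counts in all 3 younger libraries and 31, 30 and 1638 counts in the older ones. It was at least 758-fold higher against a floor of 3 counts over the younger libraries, and at least 35.7-fold higher without 30-day replicate 3 (edgeR adjusted p = 0.201). Dro, encoding drosocin, had 10, 0 and 0 counts against 123, 16 and 895 (log2 fold change 7.14, edgeR adjusted p = 0.201). AttC, an attacin, had 14, 48 and 0 counts against 152, 63 and 1378 (log2 fold change 5.09, edgeR adjusted p = 0.294). Def, the defensin gene, followed another order, with 143, 101 and 126 counts against 372, 207 and 160 and its highest level in 30-day replicate 1 (log2 fold change 1.31, edgeR adjusted p = 0.450).

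The ages overlapped for the remaining genes. DptB, the other diptericin, had 14, 79 and 0 counts in the younger and 0, 118 and 863 counts in the older females. CecA1, a cecropin, had 0, 0 and 25 against 63, 25 and 159 counts. The attacins AttA and AttB, near copies whose reads may be shared, had 22, 43 and 63 against 0, 18 and 469 counts and 39, 53 and 6 against 0, 22 and 338 counts. In each of these genes 30-day replicate 3 was the highest library. AttD had 6, 5 and 18 against 0, 26 and 28 counts. Their fitted log2 fold changes were 3.77 (DptB), 3.53 (CecA1), 2.28 (AttA), 2.31 (AttB) and 1.06 (AttD), and the edgeR adjusted p was 0.570 or more for each. Without 30-day replicate 3 the values of AttA and AttB turned to -2.26 and -1.50, and the list's median was 1.51. Of 14 tested peptide genes of the Toll pathway, the response to fungi and Gram-positive bacteria, edgeR, DESeq2 and limma-voom called 0, and 0 had an unadjusted p below 0.05. Their median was 0.23, and it turned to -0.52 without 30-day replicate 1 and was 0.81 without 10-day replicate 2. Drs, encoding the antifungal drosomycin, had 262, 199 and 243 CPM against 429, 171 and 147 CPM (log2 fold change 0.09, edgeR adjusted p = 0.954). The signalling genes of both pathways were close to all genes, with medians of 0.10 for 11 Imd and 0.22 for 16 Toll pathway genes and 0 calls by the 3 tools. At an unadjusted p below 0.05, 1 Imd and 0 Toll pathway genes were higher and 0 lower. Among 11 peptidoglycan recognition proteins, which sense bacteria, edgeR and limma-voom called 0 and DESeq2 called PGRP-LA lower (11.2, 12.4 and 7.32 CPM against 1.96, 3.26 and 4.54 CPM, edgeR log2 fold change -1.66, adjusted p = 0.247). It was the 1 gene of these at an unadjusted p below 0.05. PGRP-SB1 had 3.70, 1.52 and 1.66 CPM against 1.98, 2.83 and 17.1 CPM, again with its highest level in 30-day replicate 3 (log2 fold change 1.67, edgeR adjusted p = 0.561).

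**Figure D5:**
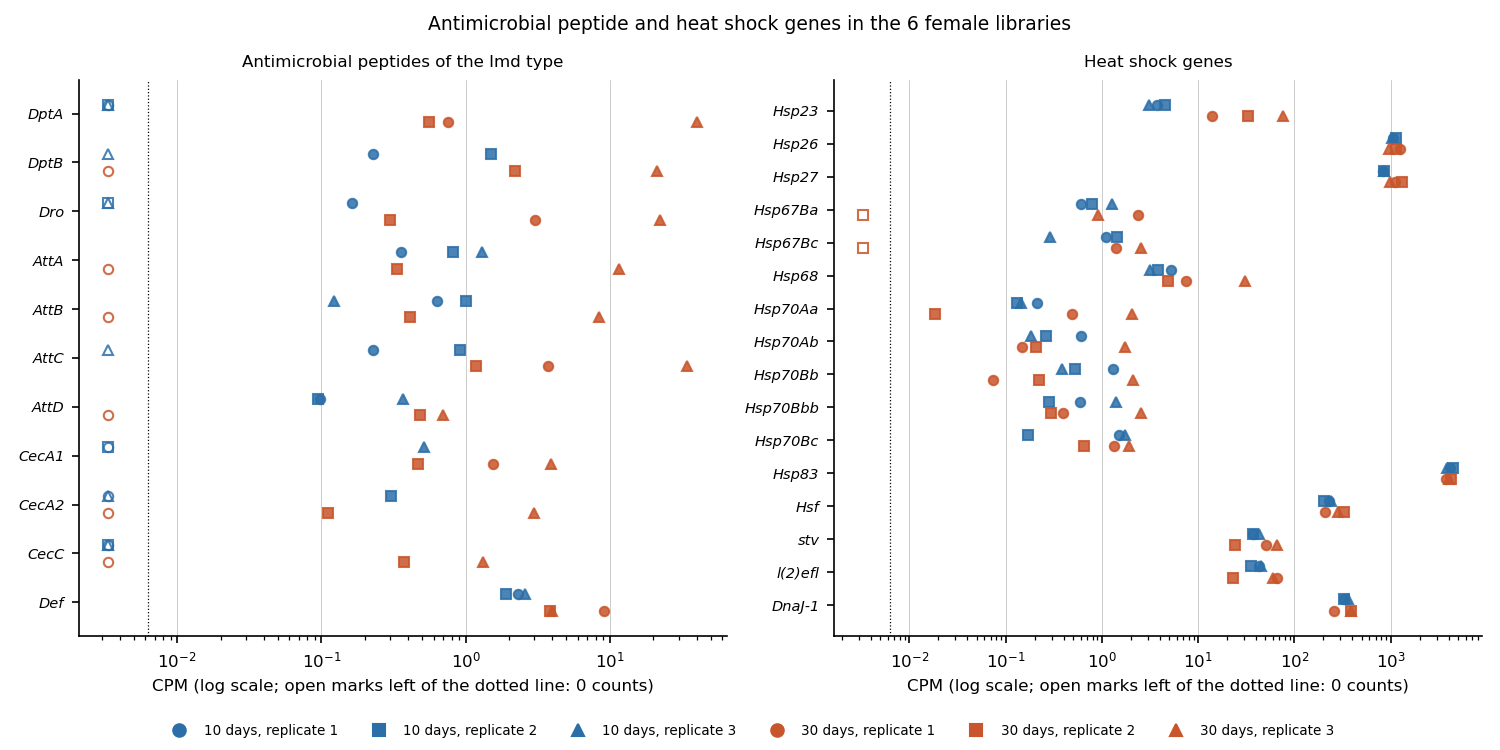
CPM (log axis) of 11 Imd-type antimicrobial peptide genes in the left panel and 16 heat shock genes in the right panel in the 6 female libraries, blue for 10 days and orange for 30 days, with open marks left of the dotted line for 0 counts. The orange triangle of 30-day replicate 3 is the rightmost mark for every peptide gene except Def, and for Hsp23 and Hsp68.

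The lists of insulin signalling, Akh and lipid, maltase, gut protease and ecdysone genes held no gene called by edgeR or limma-voom. For each of these lists the shares over all genes were 6.02% lower and 3.5% higher at an unadjusted p below 0.05. DESeq2 called 1.65% of all genes lower. Among 18 tested insulin pathway genes 1 was higher and 1 lower at an unadjusted p below 0.05, and DESeq2 called 0. Ilp2, the main insulin-like peptide of the brain, had 6.35, 9.85 and 5.56 CPM in the younger and 2.54, 1.23 and 3.15 CPM in the older females, without overlap (log2 fold change -1.65, edgeR adjusted p = 0.328). Pepck2, an enzyme of the gluconeogenic step, had 5.78, 13.6 and 7.65 CPM against 30.3, 12.3 and 21.1 CPM (log2 fold change 1.23, edgeR adjusted p = 0.379). AkhR, the receptor of the adipokinetic hormone that mobilizes fat and sugar stores, had 23.0, 21.0 and 17.3 CPM against 8.66, 4.32 and 9.52 CPM. Its log2 fold change was -1.45 (edgeR adjusted p = 0.201), and it was the 1 gene of 15 in the Akh and lipid list that DESeq2 called. FASN1, a fatty acid synthase, had 316, 593 and 301 CPM against 238, 83.5 and 246 CPM (log2 fold change -1.09, edgeR adjusted p = 0.408). The lipases Hsl and bmm had log2 fold changes of 0.42 and 0.30 (edgeR adjusted p of 0.482 and 0.511). In that list 2 genes were higher and 3 lower at an unadjusted p below 0.05.

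Maltases and other sugar genes had a median of 0.87 over 15 genes, with 0 calls by the 3 tools and 1 higher and 1 lower gene at an unadjusted p below 0.05. The median turned to -0.25 without 30-day replicate 3, and was 1.68 without 10-day replicate 2 and 0.40 without 10-day replicate 3. Mal-B1, a maltase, had 61, 92 and 152 counts against 246, 229 and 381 (log2 fold change 1.75, edgeR adjusted p = 0.368). Among 25 digestive proteases of the gut 6 were lower and 0 higher at an unadjusted p below 0.05, DESeq2 called 4 lower, and the median was -0.75. This median rested on single libraries, as it was -0.16 without 10-day replicate 2, -0.36 without 30-day replicate 2 and -1.20 without 30-day replicate 3. Without 10-day replicate 1 edgeR called 1 of these genes lower. Jon99Ciii had 70.4, 167 and 110.4 CPM against 33.4, 23.9 and 47.5 CPM (log2 fold change -1.73, edgeR adjusted p = 0.0899), and Jon99Cii had -1.88 (edgeR adjusted p = 0.166). Both belong to the Jonah family of serine proteases, whose copies are similar in sequence. Among 15 genes of ecdysone synthesis and response, the steroid hormone of molting and oogenesis, 4 were lower and 0 higher at an unadjusted p below 0.05, DESeq2 called 2 lower, and the median was -1.11. Without 30-day replicate 1 edgeR called 1 ecdysone gene lower. br, an ecdysone-induced transcription factor that also patterns the follicle cells of the dorsal eggshell, had 17.6, 19.9 and 18.2 CPM in the younger and 6.31, 4.62 and 7.01 CPM in the older females (log2 fold change -1.64, edgeR adjusted p = 0.0797). Cyp18a1, which inactivates ecdysone, had 18.7, 24.4 and 23.3 CPM against 11.9, 5.47 and 8.92 CPM (log2 fold change -1.34, edgeR adjusted p = 0.201).

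The age difference of females was then compared with that of males in a fit of all 12 libraries. Of 14112 genes tested for this interaction, 2 passed (0.0142%), beside 46 (0.326%) for females alone and 63 (0.446%) for males alone in the same fit. limma-voom passed 83 genes (55 lower, 28 higher), 1 of the 2 among them. In females the log2 fold change of CG15570 was -10.36 in this fit, while males had 72, 80 and 179 counts at 10 days and 67, 37 and 61 counts at 30 days. The difference between the sexes was -9.71 (standard error 1.02, edgeR adjusted p = 0.0119). GstS1, a glutathione S-transferase abundant in muscle, had 8375, 7617 and 7738 counts in 10-day and 8097, 13296 and 8601 counts in 30-day females. In males it had 19520, 20530 and 20050 counts at 10 days and 10267, 5686 and 9751 counts at 30 days. The log2 fold change was 0.57 in females and -0.91 in males (edgeR adjusted p = 0.0281 in males), and the difference was 1.48 (standard error 0.17, edgeR adjusted p = 0.0161). For the other 22 called genes of the female comparison the difference from males did not pass with edgeR. The nearest were Jhbp5 (-1.76, edgeR adjusted p = 0.0536), then CG1077 (-7.12), Ugt50B3 (-1.53) and Hsp23 (3.60), each with an edgeR adjusted p of 0.0814. A difference that did not pass does not show that the sexes changed alike. Cp38 had a wide difference of -10.72 (edgeR adjusted p = 0.558), whereas that of CR14033 was 0.17 (edgeR adjusted p = 0.957). The fitted change in males was 3.14 for Cp38 (edgeR adjusted p = 0.903) and 0.90 for CR14033 (edgeR adjusted p = 0.111). The size of the Cp38 difference is therefore no estimate of how the sexes differ in ageing.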

How the data were processed

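RNA was isolated from whole flies, and poly(A) libraries were sequenced as paired-end reads of 150 bp by a sequencing company. The authors deposited whole-number counts per NCBI gene for each library, 1 table per age, without normalization. The aligner, counting tool, genome build and annotation are not given in the sources used here. A further 16 columns of values in these tables (normalized values and group means) and the short FPKM tables, which hold the authors' comparison of the sexes, were not used. Gene symbols, chromosome arms, neighbours and overlaps came from RefSeq for the Release 6 plus ISO1 MT assembly, and 14752 of 14760 joined genes had a symbol.

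The tables were joined on the gene number. Genes listed at 1 age only (370 and 501) were left out, and the joined genes held nearly all counts of each library. Counts were filtered with filterByExpr (minimum count 10, minimum total 15), scaled with TMM factors and tested with edgeR 4.0.16 (glmQLFit, glmQLFTest, R 4.3.3) with Benjamini-Hochberg adjustment over all tested genes and a threshold of 0.05. Standard errors are the log2 fold change divided by the square root of F. Figures were drawn with matplotlib 3.10.9. The script was tested on simulated data. Totals of 37558056 to 62924598 counts keep counting error small for most genes, and floors cover counting error only.

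Alternatives were other library factors, filters, DESeq2 1.42.0, limma-voom (limma 3.58.1), a fold limit, a replicate block, a fit of 12 libraries, both sets of joined genes and leaving out each library. Named were the 10 largest rises and falls among called genes whose ages did not overlap and whose higher age had 100 counts or more in each library, members of gene lists (all of a short list, otherwise up to 4 with the smallest adjusted p and up to 2 that define it) and genes of pathways the study discusses. The 49 lists were chosen with earlier results of these data known, and 4 of them, which split the eggshell lists, were made after the values were seen. Similar copies (Jonah proteases, attacins, Hsp70 genes) may share reads.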

Additional observations from a re-analysis of the deposited data

Results flagged for a closer look

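The age difference in females minus that in males was -9.71 on the log2 scale for CG15570 and 1.48 for GstS1. Both are listed here because the test of the difference between the sexes passed the threshold. All 3 older female libraries were below all 3 younger ones for CG15570, and all 3 above for GstS1 in CPM. With limma-voom on the same 12 libraries 1 of these 2 genes passed.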

How the results depend on the processing

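The 23 calls became 14 with upper quartile factors, 150 with factors from photoreceptor, neuron and muscle genes (82 higher, 68 lower, 21 of the 23 kept), 86 without the filter, 198 with DESeq2 (22 kept), 9 with limma-voom (6 kept) and 46 in the fit of 12 libraries (12 kept). Leaving out 1 library gave between 10 and 99. With factors from photoreceptor, neuron and muscle genes some adjusted p fell steeply although the change became smaller. Cp36 went from -7.35 (edgeR adjusted p = 0.0899) to -6.44 (edgeR adjusted p = 7.04e-41). The 150 calls of that fit are therefore not comparable with the 23, and the reason was not tested. The interaction gave 2 genes with edgeR and 83 with limma-voom. RLE factors (20), total counts (16), a mean of at least 50 counts (16), the robust fit (16), the fold limit (23), genes of either table (25) and dropping 96 genes with unexpected zeros (24) stayed within 1.5 times. The robust fit nevertheless lost the calls of Cp38, Cp7Fc and Cp7Fb. No called gene changed sign in any of these fits, but calls were often lost. Over all called genes and fits the call was kept 312 times and lost 125 times. Uhg1 and Hsp23 each lost it in 12 of 19 fits, Cp7Fb and Nplp3 in 11 and Fcp3C in 10.

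With a replicate block, 6 genes were called, all among the 23. The sources used here name no pairing of the samples by replicate number. Deviations of same-numbered libraries from their age means correlated at -0.08, -0.15 and -0.02. With so few libraries per age these values cannot decide whether the samples were paired.

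Among genes that were not called, factors from photoreceptor, neuron and muscle genes turned yl to 0.42, osk to 0.14, fs(1)M3 to 0.30 and clos to 0.44. The photoreceptor and neuron genes were themselves mostly lower at 30 days, so these factors raise the other genes. limma-voom turned AttA to -0.96, AttB to -0.39 and Drs to -0.077, and the replicate block turned them to -0.75, -0.83 and -0.079. Leaving out 1 library gave values from -2.26 to 2.86 for AttA, -1.50 to 2.93 for AttB, -2.83 to 0.75 for Cp15 and -0.58 to 0.35 for Drs. Causes were not tested.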

Other observations

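Other groups of genes gave further values at 30 against 10 days. Beside them, 6.02% of all tested genes were lower and 3.5% higher at an unadjusted p below 0.05, and DESeq2 called 1.65% lower. Of 8 clock genes, edgeR and limma-voom called 0, DESeq2 called 1 lower, and 3 were lower and 1 higher at an unadjusted p below 0.05. per, a repressor of the clock, had 13.1, 14.5 and 13.6 CPM in the younger and 6.51, 1.96 and 3.97 CPM in the older females (log2 fold change -1.73, edgeR adjusted p = 0.230). tim, its partner, had 26.5, 27.4 and 34.3 CPM against 24.3, 13.5 and 20.7 CPM (log2 fold change -0.59, edgeR adjusted p = 0.498). The hour of collection is not given in the sources used here.

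Of 67 cuticle protein genes 22 were tested, with a median of -1.06 (-0.67 without 30-day replicate 2). Cpr72Ec had 21.8, 30.7 and 27.0 CPM at 10 days and 13.1, 3.57 and 5.92 CPM at 30 days (log2 fold change -1.82, edgeR adjusted p = 0.201). Of 74 cytochrome P450 genes edgeR and limma-voom called 0 and DESeq2 1 lower, with 3 higher and 1 lower at an unadjusted p below 0.05. Over all genes 3.5% were higher and 6.02% lower at that p, and DESeq2 called 1.65% lower. The median of the P450 genes was 0.03, beside 0.02 for all tested genes. Genes of male tissues stayed low. The 44 seminal fluid genes summed to between 0.391 and 3.30 CPM and the 17 testis genes to between 4.92 and 10.7 CPM over the 6 libraries.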
